A study of Mus musculus with 2 samples.

Results

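The nuclear genes of oxidative phosphorylation were examined for CTCF binding near their transcription starts. Members were the autosomal protein-coding genes of the mm9 annotation (GENCODE vM1) named as Ndufa, Ndufb, Ndufc, Ndufs or Ndufv with a number, Sdha to Sdhd, Uqcr, Cyc1, the Cox4i to Cox8 subunits and Atp5. The rule gave 82 genes of 21281, of which 34 belonged to complex I, 4 to complex II, 9 to complex III, 17 to complex IV and 18 to complex V. Genes were placed in a complex by symbol, so that Atp5s and Atp5sl counted under complex V and Ndufa4 under complex I. Ndufb8 had 2 gene entries and was counted once. Atp5l-ps1, a pseudogene by its symbol, is coding in this annotation and was kept.

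The data were peak lists of CTCF ChIP-seq, and the cells were E14TG2a.4, an embryonic stem line of mouse strain 129/Ola that is male by its labels. The series holds 1 group of 2 libraries, biological replicates 1 and 2 of this one line, with no genotype or treatment compared. Peaks had been called on the mm9 build for each replicate (35612 and 36015 autosomal peaks) and for both pooled (38519 autosomal), and on mm10 in separate lists. Read counts do not stand in the lists, and the depth of the libraries is therefore unknown. Column 7 of the mm9 lists is the authors' signal value for a peak, on a scale that is not stated. Its median over autosomal peaks was 12.1 in the pooled list, 13.99 in replicate 1 and 14 in replicate 2. Relative values below are column 7 divided by this autosomal median of its own list. A single group allows no test between conditions, and no test was made on a list of genes chosen with results known. Counts are set beside the same share over all autosomal coding genes.

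Oxidative phosphorylation takes place at the inner mitochondrial membrane. Complexes I and II pass electrons from NADH and succinate to ubiquinone, complex III passes them to cytochrome c, and complex IV reduces oxygen. Complexes I, III and IV pump protons, and complex V, the ATP synthase, uses the proton gradient to make ATP. Most subunits are encoded in the nucleus and a smaller set in mitochondrial DNA. CTCF is a zinc-finger protein that binds a long DNA motif at insulators and at the anchors of chromatin loops, and also at a share of promoters.

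A 19-base CTCF motif was learned from the strongest pooled peaks away from the members, with the consensus TGGCCACCAGAGGGCGCTA. Of the 10 motif matches that lie in promoter peaks of members, 9 are printed first. The midpoints of these peaks lay within 1 kb of an annotated start, which for Atp5b was an alternative one. Each line gives the 19 motif bases in capitals with 10 flanking bases on either side, on mm9, read along the strand on which the motif was found. None of the 10 overlapped an annotated exon.
Ndufa3 (chr7:3568630-3568668, plus strand): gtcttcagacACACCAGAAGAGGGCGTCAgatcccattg
Ndufa6 (chr15:82184847-82184885, plus strand): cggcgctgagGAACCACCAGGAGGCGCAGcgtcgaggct
Ndufb10 (chr17:24861429-24861467, minus strand): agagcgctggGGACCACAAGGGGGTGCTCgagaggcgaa
Ndufs8 (chr19:3912382-3912420, minus strand): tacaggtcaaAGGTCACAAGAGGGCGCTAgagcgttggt
Ndufv1 (chr19:4012913-4012951, minus strand): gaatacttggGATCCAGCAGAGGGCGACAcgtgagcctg
Ndufv2 (chr17:66451214-66451252, minus strand): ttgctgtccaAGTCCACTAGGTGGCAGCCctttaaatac
Atp5b (chr10:127523616-127523654, minus strand): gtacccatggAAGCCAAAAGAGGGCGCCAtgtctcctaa
Atp5f1 (chr3:105763801-105763839, minus strand): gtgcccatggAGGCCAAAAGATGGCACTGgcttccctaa
Atp5j2 (chr5:145953433-145953471, plus strand): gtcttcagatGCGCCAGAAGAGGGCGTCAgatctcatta
Of the 10, 7 ran on the same strand as the gene. Over all 39 member sites that could be shown it was 22. Strands were not compared over all genes or tested, so no preferred orientation is drawn from these counts. The sites kept 10 to 16 of the 19 consensus bases, and 0 of 39 kept all of them.

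The next 4 sites belong to the members of complexes II, III and IV with the strongest peak, and to Cox6a1, the complex IV gene with the nearest peak. They lie between genes (Sdhb, Cox8b) or in an intron of the gene itself (Uqcr11, Cox6a1).
Sdhb (chr4:140513941-140513979, minus strand): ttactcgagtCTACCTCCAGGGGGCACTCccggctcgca
Uqcr11 (chr10:79866228-79866266, minus strand): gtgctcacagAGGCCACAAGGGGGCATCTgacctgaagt
Cox6a1 (chr5:115797777-115797815, minus strand): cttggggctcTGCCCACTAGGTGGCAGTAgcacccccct
Cox8b (chr7:148089781-148089819, minus strand): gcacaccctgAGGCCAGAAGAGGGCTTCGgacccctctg
The letters CAGAAGAGG, which stand in the Ndufa3, Atp5j2 and Cox8b sites, are those found in many B2 SINE copies of the motif, although no repeat annotation was used here. They were in the match of 11 of the 39 sites (28.2%), against 26.8% of 7068 motif-bearing nearest peaks of all genes. The members were searched along the motif strand with flanks, and all 11 fell within the motif. For all genes the search covered both strands within the motif only. The other 8 were at Ndufb9, Ndufs7, Ndufv3, Uqcrb, Uqcrh, Cox6b1, Atp5g3 and Atp5l. Pooled column 7 of the 11 ran from 4.92 at Atp5j2 to 23.49 at Cox8b, with a median of 12.94 against 13.63 for the other member sites. Over all genes the medians were 10.41 with the letters and 14.07 without. The share in members was near the background.

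A pooled peak midpoint lay within 10 kb of an annotated start in 56 of the 82 genes (68.3%), against 51.4% of all autosomal coding genes. Within 1 kb, termed promoter peaks here, it was 16 genes (19.5%) against 13.1%. The members were richer in CpG starts, 66 of 82 (80.5%) having an observed-to-expected CpG ratio of at least 0.6 in 1000 bp, against 46.6% of all genes. Among all CpG-rich genes the shares with a peak were 60.5% within 10 kb and 16.3% within 1 kb, nearer to the members than the shares of all genes. Of the 66 CpG-rich members 45 had a peak within 10 kb and 11 within 1 kb. Of the other 16 members the counts were 11 and 5.

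The distance from CpG-rich genes changed with the window. Among like genes, 16.7% of the 66 CpG-rich members had a peak within 0.5 kb of a start, against 9.80% of all CpG-rich genes. Within 1 kb the share of CpG-rich members was still 16.7%, close to the 16.3% of CpG-rich genes. Within 2 kb the shares were 24.2% and 25.5%, within 5 kb 48.5% and 43.4%, within 10 kb 68.2% and 60.5%, and within 20 kb 81.8% and 78.3%. The share of CpG-rich members was thus higher at 0.5 kb and from 5 kb outward, close at 1 kb and lower at 2 kb. The same 11 genes make up the counts at 0.5 and 1 kb. The differences rest on few genes and were not tested, so no pattern by window is drawn from them.

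**Figure D1:**
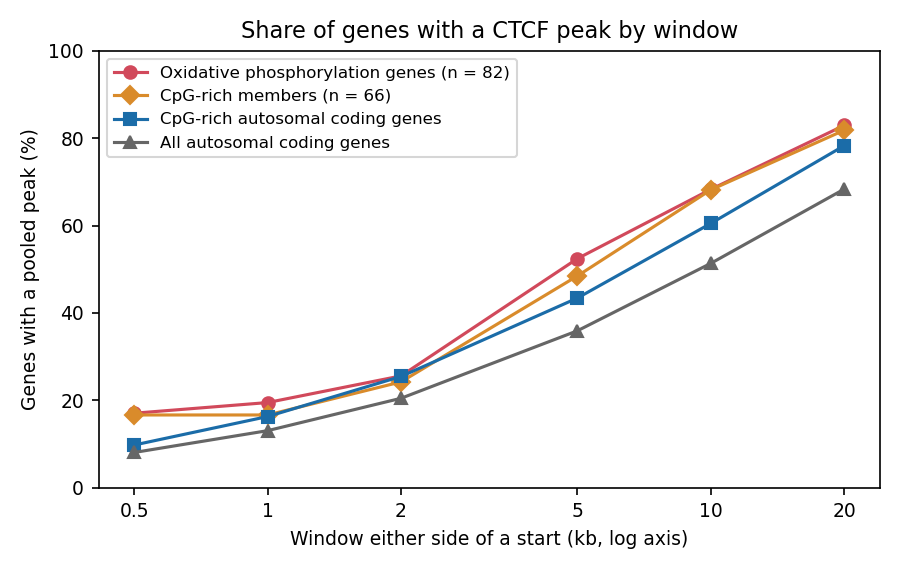
Percentage of genes with a pooled CTCF peak midpoint within a window either side of a start (kb, log axis), for the 82 oxidative phosphorylation genes, the 66 CpG-rich ones among them, CpG-rich coding genes and all coding genes on autosomes. At 0.5 kb the CpG-rich members lie above CpG-rich genes (16.7% against 9.80%), and at 1 kb the curves meet (16.7% and 16.3%).

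Each replicate alone gave like counts. In the list of replicate 1, 55 members had a peak within 10 kb (background 48.8%) and 18 within 1 kb (12%). In that of replicate 2 they were 53 (49.2%) and 14 (12.1%). The mean was 54.0 ± 1.41 (SD, n = 2) within 10 kb and 16.0 ± 2.83 within 1 kb.

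Another gene's start lay within 1 kb of that of 27 members (32.9%), against 13.4% of all autosomal coding genes. Of these 27 members, 17 had a peak within 10 kb and 1, Atp5f1, had one within 1 kb. Of the 55 members with no other start so near, 39 had a peak within 10 kb and 15 within 1 kb. Over all genes the share within 10 kb was 58.1% with a neighbouring start and 50.3% without, and within 1 kb it was 14.8% and 12.8%. The difference between these groups of members was not tested.

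The 56 nearest peaks were 56 different peaks. Their midpoints were between genes in 28, in an intron in 24 and in an exon in 4, and 19 were inside the member itself. They were upstream of the start in 36 and downstream in 20 (over all genes 56.5% were upstream). The median distance was 2414 bp against 2854 bp over all genes, and the median pooled column 7 was 12.94 against 12.24. In 17 members another gene's start was closer to the peak, as for Ndufb8, whose peak lay 7266 bp from its own start and 144 bp from that of Hif1an. A peak near a member is therefore not always a peak of that member. Midpoint locations and closer starts were not counted over all genes, so these counts describe the members only.

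**Figure D2:**
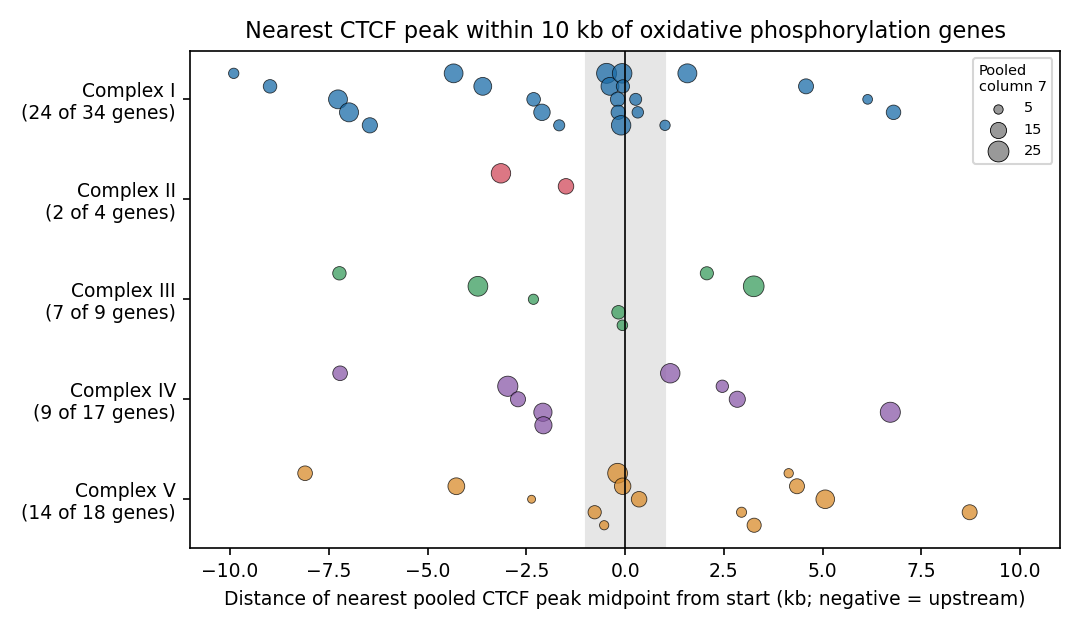
Signed distance (kb, negative is upstream) of the nearest pooled CTCF peak from the start for the 56 members with one within 10 kb, by complex, with point area proportional to pooled column 7 and the 1 kb promoter window in grey. Complexes I, III and V have 9, 2 and 5 points inside the grey band, and complexes II and IV have 0.

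In both replicate lists the nearest peak was found for 49 of the 56 members (87.5%), against 85.7% of the nearest peaks of all genes. Replicate 1 alone held those of Ndufa11, Uqcrc2, Atp5g3 and Atp5j2, and replicate 2 alone those of Atp5a1 and Atp5g1. The Uqcrb peak was in the pooled list only, with a column 7 of 6.05. All 7 were below the pooled median. Counting any peak within 10 kb, 52 of the 56 members had one in both lists, and Ndufa11, Uqcrb, Atp5g1 and Atp5j2 did not. Across the 49, the log2 ratio of relative column 7 (replicate 1 over replicate 2) had an SD of 0.27, against 0.29 over 8033 peaks near all genes. It ran from -0.74 to 0.67, so no member reached a 2-fold difference, and 16 of the 49 were higher in replicate 1. The median log2 ratio was -0.09 in the members and -0.06 over the 8033 peaks, below 0 in each set.

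**Figure D3:**
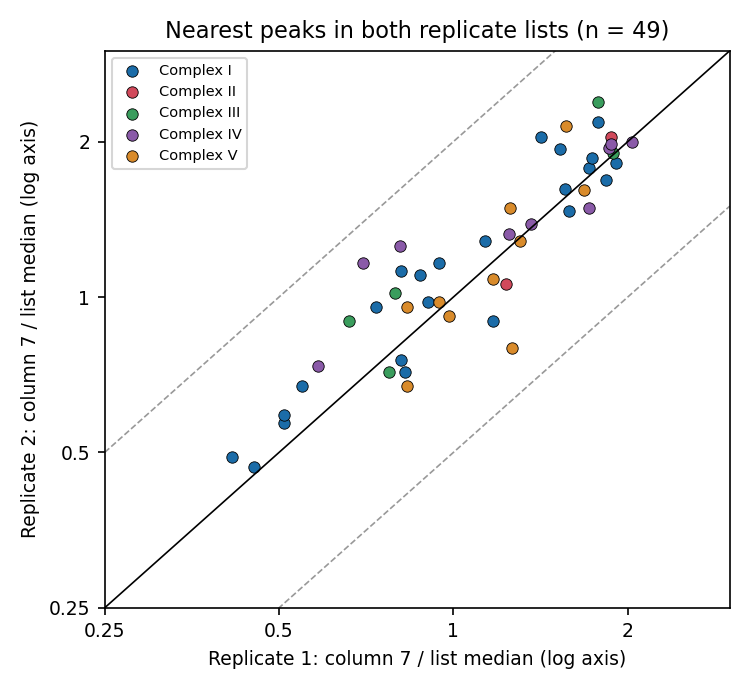
Relative column 7 (value over the list median, log axes) of the nearest peak in replicate 1 and replicate 2 for the 49 members with that peak in both lists, coloured by complex. The solid line marks equal values and the dashed lines a 2-fold difference, and all 49 points lie between the dashed lines.

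The CTCF motif was present in the nearest peak of 40 of the 56 members (71.4%), against 75.4% of all nearest peaks. A match had to reach 12.98 bits, the score reached by 1% of windows beside peaks. Of flanks as wide as the peaks themselves, 8.87% held one. At the stricter score reached by 0.1% of windows the count fell to 20 of 56, against 30.2% of all nearest peaks. At the 1% score the share was near the background, and by complex it was 18 of 24 in complex I, 2 of 2 in II, 5 of 7 in III, 7 of 9 in IV and 8 of 14 in V.

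Distances run to the nearest of a gene's annotated starts. For 13 of the 56 members that was not the most upstream one, and for 8 of these the start used lay over 1 kb inside it (Ndufa7, Ndufa10, Ndufb4, Sdha, Uqcrh, Atp5b, Atp5d and Atp5sl).

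In complex I, the NADH dehydrogenase, 24 of 34 genes had a peak within 10 kb and 9 of them had a promoter peak. Its nuclear core subunits include those that carry the flavin and the iron-sulfur clusters and bind ubiquinone. Of the 7 nuclear core genes 6 had a peak within 10 kb, 4 had one within 1 kb, and all 6 nearest peaks held the motif and were in both replicates. Ndufs3 had none within 10 kb. Of the 27 accessory genes 18 had a peak, 5 had a promoter peak and 12 of the 18 nearest peaks held the motif. Over all genes the shares were 51.4% within 10 kb and 13.1% within 1 kb. Of all nearest peaks 75.4% held the motif and 85.7% were in both lists. This division was made after the values were seen, on few genes, and was not tested.

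Ndufv2, an iron-sulfur subunit of the NADH-oxidising module, had the strongest nearest peak of complex I, 469 bp upstream of its start. Its column 7 was 22.93 pooled, 24.82 in replicate 1 and 30.56 in replicate 2, or 1.98 ± 0.289 relative (SD, n = 2). A still stronger peak stood 5541 bp from the start, with 25.88 pooled, 30.1 and 32.85 in the replicates. This was the highest value within 10 kb of any complex I gene. One more Ndufv2 peak, in its intron, had 8.3 pooled.

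Ndufv1 carries the flavin that oxidises NADH, and its nearest peak lay 175 bp upstream, with 11.68 pooled, 12.67 in replicate 1 and 13.71 in replicate 2. It was close to the median of each list (0.942 ± 0.0521) and below its partner Ndufv2 in both libraries.

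Ndufs8 binds iron-sulfur clusters close to ubiquinone, and its peak lay 321 bp downstream, in an intron of the gene. Column 7 was 7.6 pooled, 7.13 in replicate 1 and 8.28 in replicate 2 (0.551 ± 0.0578). The peak was weak in both libraries although its site, printed above, kept 16 of the 19 consensus bases and scored 20.1 bits, the highest of the 10 promoter sites.

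Among the accessory subunits, Ndufb10 and Ndufc1 belong to the membrane arm and had the strongest promoter peaks. The Ndufb10 peak, 75 bp upstream, had 22.08 pooled, 26.67 in replicate 1 and 25.42 in replicate 2 (1.86 ± 0.0641). Its motif centre was 25 bp upstream of the start. The Ndufc1 peak, 101 bp upstream, had 21.8 pooled, 24.29 and 25.99 (1.80 ± 0.0850). Both were well above the median in both libraries.

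The remaining accessory genes with a promoter peak were Ndufa3, Ndufa6 and Ndufa12. Ndufa3 had 18.46 pooled, 21.77 in replicate 1 and 22.66 in replicate 2, at 383 bp upstream (1.59 ± 0.0442). Ndufa6, of the LYR-motif protein family, had 12.1 pooled, 11.35 and 15.71, at 189 bp upstream, and its replicates lay on either side of their medians (0.967 ± 0.220). Ndufa12 had 8.3 pooled, 7.66 and 9.43, at 268 bp downstream in an intron, below the median in both (0.611 ± 0.0891), and its best motif score was only 5.91 bits. Just outside the 1 kb limit was Ndufa13, at 1010 bp with 6.19 pooled, and its peak was nearer to the start of Tssk6 (636 bp).

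The other 15 complex I genes with a peak had it 1010 to 9905 bp away. At the far end stood Ndufs4, an accessory subunit, at 9905 bp upstream with 6.19 pooled. Ndufa4, Ndufa8, Ndufa9, Ndufb2, Ndufb5, Ndufb7, Ndufc2, Ndufs3, Ndufs5 and Ndufs6 had no pooled peak within 10 kb.

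**Figure D4:**
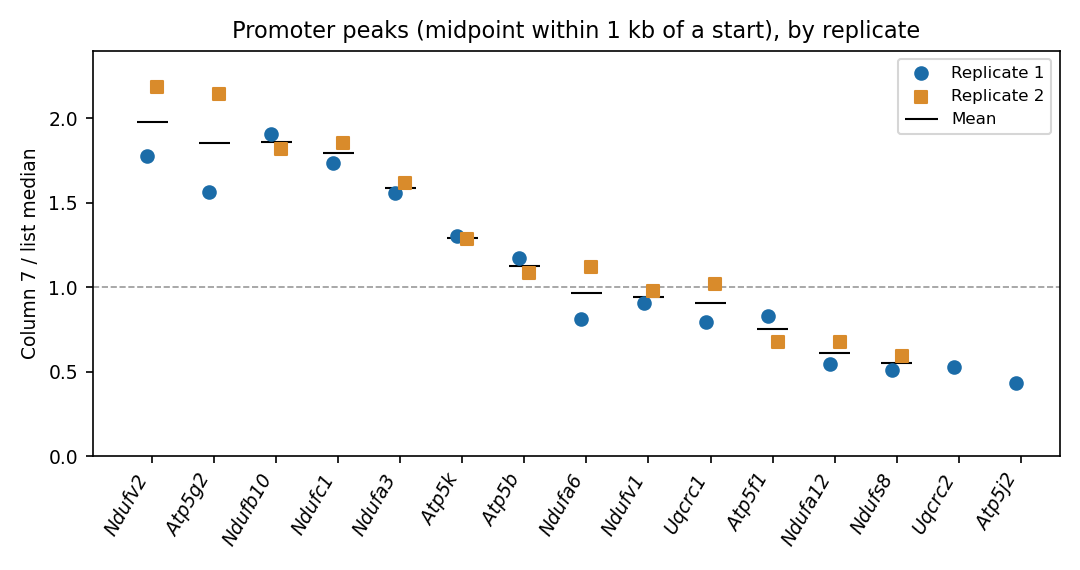
Relative column 7 (value over the list median, dashed line at 1) of the nearest peak for 15 of the members with a midpoint within 1 kb of a start, in replicate 1 (circles) and replicate 2 (squares), with the mean as a bar where both exist. Genes are ordered by pooled column 7, and the means range from 1.98 for Ndufv2 to 0.551 for Ndufs8 among the 13 found in both, and Uqcrc2 and Atp5j2 have a value in replicate 1 alone.

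Complex II, succinate dehydrogenase, is both a Krebs cycle enzyme and an entry point of electrons. Its 2 soluble subunits had a peak and its 2 membrane anchors, Sdhc and Sdhd, did not. Sdhb, the iron-sulfur subunit, had 21.8 pooled, 26.14 in replicate 1 and 28.56 in replicate 2, at 3142 bp upstream (1.95 ± 0.121). Sdha, the flavoprotein, had 13.9 pooled, 17.25 and 14.83 (1.15 ± 0.123). That peak lies in an intron of Sdha, 1496 bp upstream of an internal alternative start but 9028 bp downstream of the first start of the gene. Sdhd and Sdhc were close to the limit of 10 kb, with a nearest peak at 10038 and 10799 bp, so the split between them and Sdha rests on the window.

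Complex III, the cytochrome bc1 complex, had 7 of 9 genes with a peak (77.8%, against 51.4% of all genes). It had 2 promoter peaks (22.2% against 13.1%), at the genes of its core proteins. These differences rest on few genes and were not tested. Uqcrc1 had 10.55 pooled, 11.09 in replicate 1 and 14.28 in replicate 2, at 166 bp upstream (0.906 ± 0.161). Uqcrc2 had 6.47 pooled and 7.39 in replicate 1, at 69 bp upstream, and its peak was not listed in replicate 2. Another, more distant Uqcrc2 peak was in both lists, with 7.74 pooled, 8.98 and 7.14. The best motif score in the promoter peak was 1.57 bits, the lowest of the promoter peaks.

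The strongest nearest peak of all 56 members was in an intron of Uqcr11, a small subunit of complex III, 3255 bp downstream of the start. It had 24.76 pooled, 24.82 in replicate 1 and 33.42 in replicate 2 (2.08 ± 0.433). Uqcrfs1, the Rieske iron-sulfur protein, had 22.51 pooled at 3725 bp upstream. The others, Cyc1, Uqcrb and Uqcrh, lay between 6.05 and 10.41, so that complex III held both strong and weak peaks, with a median of 10.41. Uqcr10 and Uqcrq had no peak within 10 kb.

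Complex IV, cytochrome c oxidase, had 9 of 17 genes with a peak (52.9%), near the 51.4% of all genes. It had 0 promoter peaks, against 13.1% of all genes. The median of its 9 nearest peaks was 17.02, against 12.24 over all genes. This was the highest after complex II with its 2 peaks, and the difference was not tested. Several of its subunits exist as isoforms used in different tissues. Cox8b, an isoform of heart and skeletal muscle, had 23.49 pooled, 28.51 in replicate 1 and 27.99 in replicate 2, at 2969 bp upstream (2.02 ± 0.0273). Its counterparts Cox8a and Cox8c had no peak within 10 kb.

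Cox6a1, the broadly expressed isoform, had the nearest peak of the complex, at 1143 bp downstream in an intron. It had 21.74 pooled, 25.96 in replicate 1 and 27.24 in replicate 2 (1.90 ± 0.0637). The muscle isoform Cox6a2 also had a strong peak, with 19.13 pooled, 24.03 and 20.85, at 2080 bp upstream. Of the other related genes, Cox4i1, Cox6b1 and Cox7a1 had a peak, and Cox4i2, Cox6b2, Cox7a2 and Cox7a2l did not. In the authors' conservative mm10 set Cox6b2 and Cox7a2 had weak ones within 10 kb. In their optimal mm10 set the nearest summit lay 43090 bp from Cox6b2 and 7761 bp from Cox7a2. The split therefore differs between the lists. Cox5a, Cox5b and Cox7b2 had a peak, and Cox6c and Cox7c did not. All 9 nearest peaks were in both replicate lists.

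Complex V had 14 of 18 genes with a peak (77.8%, against 51.4% of all genes) and 5 promoter peaks (27.8% against 13.1%). Of its 14 nearest peaks 4 were in only 1 replicate list and 10 (71.4%) in both, against 85.7% over all genes. These differences rest on few genes and were not tested. The mature subunit c, which forms the rotating ring in the membrane, is encoded by Atp5g1, Atp5g2 and Atp5g3. Atp5g2 had 22.51 pooled, 21.91 in replicate 1 and 29.99 in replicate 2, at 190 bp upstream (1.85 ± 0.407), the highest value of the complex within 10 kb. Atp5g1 had 5.91 pooled and 6.86 in replicate 2, at 2947 bp downstream. Atp5g3 had 5.06 pooled and 5.02 in replicate 1, at 4140 bp. Relative to the list in which they were found these were 0.490 and 0.359. A further Atp5g3 peak, 6735 bp from a start, was in both lists, with 9.71 pooled, 8.98 in replicate 1 and 10.28 in replicate 2, so that Atp5g1 alone of the 3 had none in both.

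Atp5k, which encodes subunit e, had the nearest peak of the complex, at 62 bp upstream, with 15.61 pooled, 18.22 in replicate 1 and 17.99 in replicate 2 (1.29 ± 0.0123). A stronger one lay 7037 bp from its start in an intron of Pde6b, with 20.12 pooled. Atp5b encodes the catalytic beta subunit, and its nearest peak, 354 bp downstream of an alternative start and 3311 bp downstream of the first, had 13.93 pooled, 16.37 and 15.14 (1.13 ± 0.0627). It was the member with most peaks within 10 kb, 4. Of the 5 genes of the catalytic head, Atp5a1, Atp5b and Atp5d had a peak within 10 kb, and Atp5c1 and Atp5e had none.

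Atp5f1, for the stalk subunit b, had 10.13 pooled, 11.62 in replicate 1 and 9.43 in replicate 2, at 770 bp upstream (0.752 ± 0.111). That peak lies in an intron of Wdr77, the divergent neighbour, 753 bp from its start, so the peak is about as near to that gene. Atp5j2, for subunit f, had 4.92 pooled and 6.07 in replicate 1 at 530 bp upstream, and its peak was not listed in replicate 2. The weakest nearest peak of all members was that of Atp5a1, the alpha subunit, with 3.66 pooled and 4.86 in replicate 2. Atp5a1 also had a peak above the median of both lists at 7052 bp, with 15.33 pooled, 17.43 in replicate 1 and 15.71 in replicate 2. Atp5j and Atp5l-ps1 had no peak within 10 kb either, and the furthest peak of all members was that of Atp5e, 151730 bp away.

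Promoter peaks held the motif at 10 of 16 genes, beside 75.4% of all nearest peaks within 10 kb. The share in promoter peaks of all genes was not counted, so the 10 of 16 describes the members only. Atp5k (12.5 bits) and Uqcrc1 (12.7 bits) were just under the threshold of 12.98 bits. The strong peaks of Ndufc1 (7.84 bits) and Atp5g2 (7.39 bits) were further below it, and all 4 passed the looser 6.87 bits that 5% of windows reach. The 250 bases upstream of the RefSeq start of these last genes (GRCm38.p6, mm10) are printed because both had a promoter peak well above the median in both libraries but no match, with the best-scoring 19 bases in capitals.
Ndufc1 (chr3:51408956-51409205, minus strand): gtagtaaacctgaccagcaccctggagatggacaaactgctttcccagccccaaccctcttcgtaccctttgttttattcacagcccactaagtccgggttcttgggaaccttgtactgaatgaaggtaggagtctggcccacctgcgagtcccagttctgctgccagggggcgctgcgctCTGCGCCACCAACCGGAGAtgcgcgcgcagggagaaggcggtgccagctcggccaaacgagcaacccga
Atp5g2 (chr15:102671048-102671297, minus strand): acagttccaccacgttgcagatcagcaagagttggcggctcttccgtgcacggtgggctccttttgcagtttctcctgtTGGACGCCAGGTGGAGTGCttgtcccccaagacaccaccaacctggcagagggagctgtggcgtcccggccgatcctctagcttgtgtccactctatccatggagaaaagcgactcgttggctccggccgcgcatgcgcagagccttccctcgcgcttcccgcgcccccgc
In the Ndufc1 sequence the letters AGGGGGCGC begin 84 bp upstream of the start, close to the mm10 summit at 105 bp upstream. They were chosen after the sequence was seen. Searched on both strands in the 250 bases, they were in 1 of 66 members and in 1.58% of 16457 genes. The match to the full motif there falls short, and no match in this window says nothing about the factor.

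Members were also set beside letters of factors known for respiratory genes, in RefSeq promoters of 250 bases before to 50 after the start on both strands. CATGCGC, from the NRF1 motif, was in 13 of 66 members (19.7%) against 5.46% of 16457 genes. CCGGAAG, from the ETS motif that NRF2 (GABP) binds, was in 16 (24.2%) against 13.3%. AAGATGG, from the YY1 motif, was in 12 (18.2%) against 7.26%. CATGCGC and CCGGAAG each hold a CpG, and members were richer in CpG starts than all genes (80.5% against 46.6%). The letters were not counted among CpG-rich genes alone, so the part of CpG content in these differences was not tested. A match is a description of the letters only.

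On mm10 the authors' conservative set was compared with RefSeq starts, and 66 members matched a promoter entry. A summit lay within 10 kb in 46 (69.7%) against 45.9% of all autosomal coding genes, and within 1 kb in 13 (19.7%) against 10.3%. Of those 66, 43 had a peak within 10 kb in both builds, with Ndufb7, Cox6b2 and Cox7a2 on mm10 only and Ndufa10, Atp5g1 and Atp5j2 on mm9 only. The mm10 signals of Cox6b2, 1182 bp from its start, and Cox7a2, 7761 bp away, were low in both replicates, at 0.284 ± 0.0590 and 0.340 ± 0.0501 relative to the median (SD, n = 2). The authors' optimal mm10 set had no summit within 10 kb of Cox6b2. Within 1 kb it was 11 in both, with Ndufa13 and Ndufb7 on mm10 only and Atp5b, Atp5f1 and Atp5j2 on mm9 only. The annotations of the builds place starts differently, and no coordinates were converted.

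The members with the highest signal on mm10 also had a nearest peak well above the median on mm9. Both builds rest on the same 2 libraries. In signal relative to the median of matched conservative peaks, Sdhb stood at 2.98 ± 0.141 (SD, n = 2), Ndufv2 at 2.58 ± 0.413, Uqcr11 at 2.54 ± 0.718, Cox6b1 at 2.50 ± 0.0815 and Cox8b at 2.49 ± 0.0107. Among promoter peaks Atp5g2 stood at 2.27 ± 0.446, Ndufc1 at 2.16 ± 0.0154 and Ndufb10 at 2.14 ± 0.213. Ndufs8 was low there too, at 0.611 ± 0.000746. Ndufa7 differed between the builds. On mm9 its nearest peak, 1576 bp downstream of a start, had 20.75 pooled. On mm10 another peak, 1932 bp upstream, was nearest, at 0.410 ± 0.0342. The replicates of Uqcr11, 2.03 and 3.05, overlapped the values of the other 4 strongest, so these are not ordered beyond their spread.

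Genes of the pathway outside the rule were read from a list of 58, of which 41 were found under those symbols. A peak lay within 10 kb in 26 of them (63.4%) and within 1 kb in 9 (22.0%), against the same backgrounds of 51.4% and 13.1%. Among 28 assembly factors it was 19 and 7, and among 8 regulators 5 and 1. The strongest of these promoter peaks was at Ttc19, a complex III assembly factor, with 19.83 pooled, 24.29 in replicate 1 and 20.85 in replicate 2, at 605 bp. The nearest was at Taco1, a translational activator of a mitochondrially encoded complex IV subunit, with 8.02 pooled, 7.66 and 8.57, at 20 bp. Ndufaf3, Sdhaf2, Sco2, Cox15 and Cox19 were the other assembly factors. Pprc1, a coactivator of mitochondrial biogenesis, had a weak one, with 4.78 pooled and 5.81 in replicate 1 alone. Of the X-linked subunits Ndufa1, Ndufb11 and Cox7b, only Cox7b had a peak within 10 kb, at 443 bp with 5.91 pooled, 6.34 and 5.71.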

How the data were processed

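CTCF ChIP-seq peaks came from 2 biological replicates of 1 cell line. Per the labels and the deposited formats, the mm9 lists are broad peaks with a signal value in column 7 and a −log10 p in column 8 (never below 5), deposited by the authors for each replicate and for both pooled. The mm10 lists hold the authors' narrow peaks with a signal and a summit. The aligner and the scale of the signal were not given in the sources used here, and neither was the peak caller.

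Distances run from the peak midpoint (mm9) or summit (mm10) to the nearest annotated start of any transcript. A peak was in a replicate list if it overlapped one there by 1 bp. The motif came from the 5000 strongest pooled peaks not within 10 kb of a member, and was scored against flanks 2000 bp away. Distances and motif learning were tested on simulated data. Python 3.11.15, pandas 2.3.3 and numpy 2.4.6 were used. Members and lists were chosen with earlier results of these data known. Named with full values are members with a promoter peak and the strongest and nearest in each complex, with a few more chosen after their values were seen; 1 result the rule takes is not reported here. No sequence from chromosome 18 is printed.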

Additional observations from a re-analysis of the deposited data

How the results depend on the processing

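The counts of members with a peak within 10 kb and within 1 kb, and the count in both replicate lists, stayed within 1.5 times their value under each alternative run. Counted from the most upstream start only, 55 and 15 members had a peak within 10 kb and 1 kb. The shares of all genes then fell to 43.9% and 8.74%, so the contrast with all genes changed more than the counts. The median distance was 2839 bp (3550 bp over all genes) and the median column 7 was 12.38 (12.24). Measured to the peak edge the median distance was 2030 bp (2443 bp over all genes). With a −log10 p of at least 10, the median distance was 2460 bp (3063 bp over all genes) and the median column 7 was 13.9 (13.79). Using the replicate lists alone, the median distance ran from 2462 to 2515 bp and the median column 7 from 15.71 to 15.84, on scales of their own. With the strongest peak within 10 kb in place of the nearest, chosen after seeing the data, the median column 7 was 13.93. The motif count was 20 at the score reached by 0.1% of windows, 53 at that reached by 5%, and 32 within 50 bp of the midpoint. Adding Ndufa4l2, also chosen then, gave 57 members within 10 kb. No paired analysis was possible because the series has a single group. The lists give no read counts, so no limit from depth could be set on genes without a peak.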
